A study of Homo sapiens
Mus musculus with 3 samples.

Results

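The genes described here are 7 human genes of T-cell communication, measured in single wells of a mixture of lymphocyte lines. CCL3, CCL4 and CCL5 encode chemokines, IFNG encodes interferon gamma, and IL2RA, IL2RB and IL2RG encode the 3 chains of the interleukin-2 receptor. They were taken by their Ensembl identifiers (ENSG00000006075, ENSG00000129277, ENSG00000161570, ENSG00000111537, ENSG00000134460, ENSG00000100385 and ENSG00000147168, in this order) from the 32738 human genes of the read tables, which hold 60736 genes of both species. All 7 had a row in every read table, and IFNG had no row in the table of unique molecular identifiers (UMIs). The rule that picked these genes used no measured value, but they were chosen with earlier results of these data known.

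Single-cell RNA-seq had been done on the ICELL8 cx, an instrument that dispenses cells into nanowells and gives the transcripts of each well a known barcode. Every library came from the same kind of sample, an equal mixture of 4 established lines: Jurkat and TALL-104, human T-cell leukemia lines, EL4, derived from a T lymphoma of the mouse, and IVA12, a B hybridoma of the same species. No line carried a treatment that set groups apart, and the study's methods say that TALL-104 alone had been grown with IL-2, the ligand of the receptor described here. With the kit's own protocol, 3'DE, 2 libraries had been made. A single library followed 3'DE-UMI, a modified protocol in which leftover barcoding primers are digested before amplification so that UMIs can be counted. The study's sample sheet places the 3'DE-UMI library and 3'DE library 2 on one cell mixture and 3'DE library 1 on another, so the protocol contrast has libraries of both mixtures on the 3'DE side and of 1 mixture on the other.

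CCL3, CCL4 and CCL5 are small secreted proteins that attract leukocytes. Activated cytotoxic T cells and natural killer cells are known sources of them and of interferon gamma, the cytokine that induces antigen presentation and macrophage activation. The IL-2 receptor is built from an alpha chain (IL2RA, CD25), which raises the affinity for IL-2, a beta chain (IL2RB, CD122), and the common gamma chain (IL2RG, CD132), which several other interleukin receptors share and which signals through JAK3. Jurkat descends from an immature CD4-lineage leukemia and TALL-104 from a cytotoxic CD8 leukemia that depends on IL-2.

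The 3 read tables held 35581264, 109702878 and 44883618 reads in 1704, 1518 and 1560 well barcodes, and 189 barcodes occurred in all 3. A well was kept with at least 1000 reads and 200 genes and was called human where mouse genes held less than 10% of its reads. This left 533, 484 and 557 human wells. Clustering on human genes that left out the 7 genes gave a large human cluster 1 (400, 448 and 528 wells) and a small human cluster 2 (123, 36 and 29 wells). A further 10 wells of 3'DE library 1 formed a cluster of their own, which held 1 read of IL2RG and none of the other 6 genes and was left out. The tables used here did not pair other Ensembl identifiers with symbols, so the defining markers of Jurkat and TALL-104 were not checked and the clusters were not given the names of lines. Cluster 2 wells were shallower: their median was 4564, 10690.5 and 5653 reads against 26440.5, 38248 and 17797 reads in cluster 1, with 680, 734 and 315 against 2626, 2204 and 789.5 human genes per well.

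CCL5 was far higher in human cluster 2 than in human cluster 1. Its level, in CPM (counts scaled to 1000000 human reads, summed over the wells of a cluster), was 10156 and 4940.2 in cluster 2 of the 3'DE libraries, in numbered order, and 1662 with 3'DE-UMI. Values of 3 libraries are given in this order throughout. In cluster 1 it was 21.0, 0.992 and 1.12 CPM. The ranges of the clusters did not overlap, and the lowest cluster 2 value lay far above the highest cluster 1 value. These levels rest on 6316, 7418 and 343 reads in cluster 2 and on 208, 46 and 17 reads in cluster 1. Within a library cluster 2 was 484-fold (95% counting interval 422 to 559), 4980.4-fold (3730.0 to 6809) and 1484-fold (913 to 2578) above cluster 1. On the log2 scale these folds averaged 10.58 ± 1.68 (SD, n = 3 libraries). The edgeR quasi-likelihood fit over 6 sums, with the library as a block, gave a log2 fold change of 10.40 ± 0.44 (SE, adjusted p = 7.51e-119). That SE is smaller than the spread of the folds over libraries, and DESeq2 gave 10.55 ± 1.15 (SE, adjusted p = 5.54e-17).

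CCL4 showed the same direction at lower levels. It had 588.5, 166.5 and 53.3 CPM in cluster 2 and 3.03, 0.0431 and 0 CPM in cluster 1, again without overlap. The reads behind these values were 366, 250 and 11 in cluster 2 and 30, 2 and 0 in cluster 1. The fold was 195 (134 to 293) in 3'DE library 1 and 3861 (1058 to 32054) in 3'DE library 2, where cluster 1 had 2 reads. In the 3'DE-UMI library the CCL4 value of cluster 2 was 270 times a floor of 3 reads in cluster 1. That figure leaves out the counting error of the 11 cluster 2 reads, which were 2 UMIs. The fit gave a log2 fold change of 9.94 ± 1.63 (SE, edgeR adjusted p = 2.20e-07). This call was lost without the first 3'DE library (log2 fold change 11.99, adjusted p = 0.464) and, narrowly, without the library block (8.07, adjusted p = 0.0524), while over all alternatives the adjusted p ran from 2.26e-11 to 0.464. CCL4 lies beside CCL3 on the chromosome, and both have near-identical copies in the human genome, so reads of those copies may be counted elsewhere or dropped. The copies were not identified here.

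CCL3, the remaining chemokine, was hardly seen. It had 3 reads in 3 wells of cluster 2 in 3'DE library 1 (4.82 CPM, interval 0.995 to 14.1), 1 read in a mouse well of that library, and no read in either other library. All other human wells were at 0 reads, and CCL3 did not pass the filter on low counts. The UMI table listed 1 CCL3 UMI in a cluster 2 well that had no CCL3 read.

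IFNG had 0 reads in every well of all 3 libraries, in mixed and shallow wells too. A count of 0 allows up to 4.82, 2.0 and 14.5 CPM in cluster 2 (3 reads over the cluster's total) and up to 0.302, 0.0647 and 0.198 CPM in cluster 1. In shares of wells, 0 of 123, 36 and 29 cluster 2 wells allows up to 2.44%, 8.33% and 10.3% of wells with a read. Interferon gamma transcripts were therefore not detected within these limits, which is not a statement that they were absent.

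**Figure D1:**
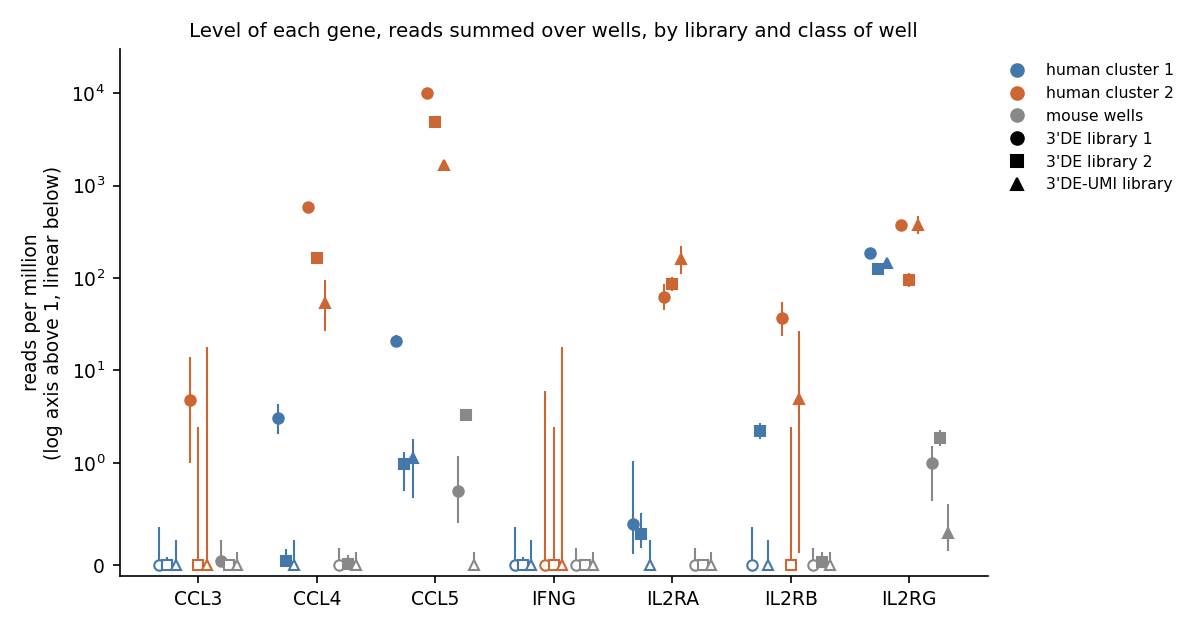
Level of each gene in CPM (vertical axis, linear below 1 and logarithmic above) for the 3 libraries (marker shapes) in human cluster 1 (blue), human cluster 2 (orange) and mouse wells (grey), with exact Poisson 95% intervals and open markers at 0 reads. CPM is scaled to human reads in human wells and to reads of both species in mouse wells. CCL5 and CCL4 of cluster 2 lie above all cluster 1 values, IFNG is at 0 throughout, and the IL2RG values of both clusters overlap.

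Of the receptor chains, IL2RG was found in the most wells of both clusters. Its level was 376, 95.9 and 378 CPM in cluster 2 and 188, 125 and 146 CPM in cluster 1. Cluster 2 was higher in 3'DE library 1 (2.0-fold, 1.74 to 2.3) and in the 3'DE-UMI library (2.59-fold, 2.04 to 3.25). It was lower in 3'DE library 2 (0.769-fold, 0.647 to 0.907), so the groups overlapped in pooled reads, where deep wells weigh most. With equal weight per well, the mean was 394, 220 and 310 CPM in cluster 2 against 188, 172 and 147 in cluster 1, without overlap. The 3'DE-UMI values of cluster 2 came from 78 reads in 4 of 29 wells, and in UMIs the ratio was 0.767 (0.0923 to 2.81). The median well was lower in cluster 2 of the 3'DE libraries, at 0 and 35.9 CPM against 118 and 80.0, and was 0 in both clusters with 3'DE-UMI. The fit gave a log2 fold change of 0.56 ± 0.89 (SE, 95% interval -1.18 to 2.3, edgeR adjusted p = 0.771). A difference between clusters was thus not shown, and the interval still holds differences of more than 2-fold in either direction.

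IL2RA was found in few wells. In cluster 2 it had 62.7, 87.2 and 160 CPM, against 0.403, 0.302 and 0 CPM in cluster 1, without overlap. The cluster 2 levels came from 39 reads in 10 wells of 3'DE library 1, 131 reads in 2 wells of 3'DE library 2, of which 117 were in 1 well, and 33 reads in 1 well of the 3'DE-UMI library. Cluster 1 had 4 reads in 1 well and 14 reads in 1 well of the 3'DE libraries. The fold was 155 (56.1 to 599) and 289 (166 to 543) in the 3'DE libraries. In the 3'DE-UMI library the cluster 2 value was 809 times a floor of 3 reads in cluster 1. Its 33 reads were 1 UMI, so that figure is not a lower bound. The fit gave a log2 fold change of 8.90 ± 2.27 (SE, edgeR adjusted p = 0.00426). IL2RA passed the filter on low counts through its cluster 2 reads, so the p-value is given as a description. The call was lost without 3'DE library 1 (10.10, adjusted p = 0.542) or without 3'DE library 2 (9.14, adjusted p = 0.194), and over all alternatives the adjusted p ran from 5.10e-10 to 0.542. With mixed wells called from 5% of reads, IL2RA fell below the filter on low counts.

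IL2RB did not separate the clusters in a way that held between libraries. In cluster 2 it had 37.0 CPM in 3'DE library 1 (23 reads in 3 wells), 0 in 3'DE library 2 and 4.85 CPM in the 3'DE-UMI library (1 read). In cluster 1 it had 0, 2.22 and 0 CPM, and 100 of the 103 reads of 3'DE library 2 lay in 1 well. The clusters overlapped. In 3'DE library 1 the cluster 2 value was 122 times a floor of 3 reads in cluster 1. In 3'DE library 2 the cluster 1 value was 1.11 times that floor in cluster 2. Neither figure includes the counting error of the higher cluster. The fitted log2 fold change was 6.26 ± 3.93 (SE, 95% interval -1.45 to 13.97, edgeR adjusted p = 0.386), and DESeq2 called it at 7.16 (adjusted p = 0.00727).

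In all, 3 of the 7 genes (CCL4, CCL5 and IL2RA) were called higher in cluster 2 by edgeR, 2 of the 5 tested (IL2RB and IL2RG) were not called, and CCL3 and IFNG had too few reads to be tested. Of all 9465 human genes tested, 381 were called (4.03%), 131 of them higher in cluster 2 (1.38%) and 250 lower (2.64%). With RLE size factors the split was 140 higher and 185 lower, and with DESeq2 279 higher and 1164 lower. The median log2 fold change of all genes tested was -1.66 with TMM factors and -1.49 with the RLE size factors, and the 3 genes called lay far above it in either case. Genes of low count pass the filter through the cluster where they are high, so the share of tested genes that were called has no weight of its own. CCL4, CCL5 and IL2RA passed it through cluster 2 in this way, so their p-values are descriptions too. The other genes of the IL-2 receptor, chemokine and interferon gamma pathways could not be counted, since their symbols could not be matched to identifiers with the tables used here.

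**Figure D2:**
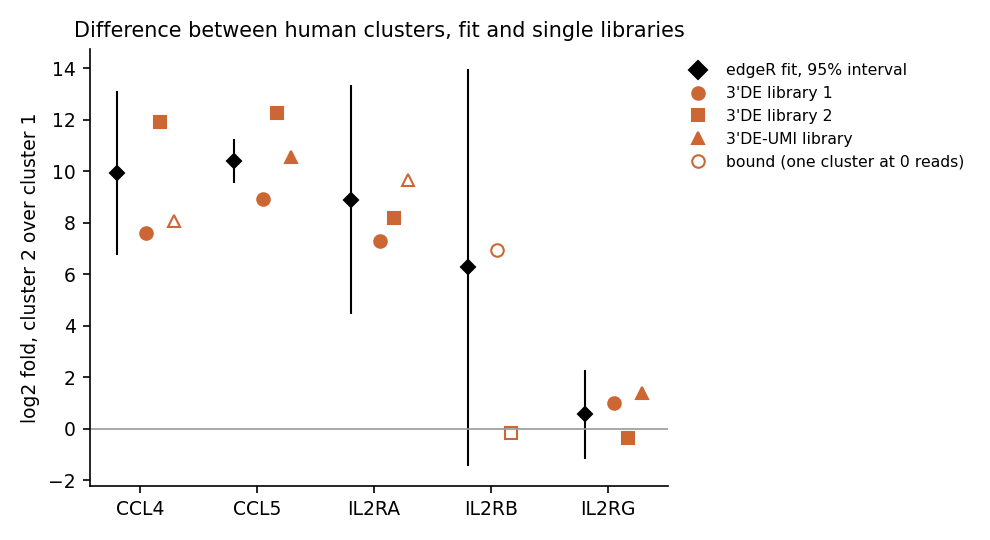
Log2 fold of human cluster 2 over human cluster 1 (vertical axis) for the 5 genes tested, as fitted by edgeR over all libraries (black, with its 95% interval) and as measured in each library (orange; open markers are bounds where one cluster had 0 reads). All library values of CCL4, CCL5 and IL2RA lie above 7, while IL2RB and IL2RG lie on both sides of 0.

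In single wells of cluster 2, CCL5 was widespread in the 3'DE libraries. A read was found in 116 of 123 wells (94.3%, exact 95% interval 88.6 to 97.7) of 3'DE library 1 and in 30 of 36 wells (83.3%, 67.2 to 93.6) of 3'DE library 2. In the 3'DE-UMI library it was found in 11 of 29 wells (37.9%, 20.7 to 57.7). Cluster 2 wells of that library held fewer human genes of any kind, at a median of 315 against 680 and 734. All positive wells of cluster 2 in the 3'DE libraries held at least 2 CCL5 reads. After each well was thinned to 2000 reads, leaving out 9, 4 and 0 shallower wells, the shares were 93.0%, 78.1% and 34.5%. The background, human reads in mouse wells, was 1.19%, 3.36% and 0% of wells with all reads and 0.327%, 0% and 0% after thinning.

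The CCL5 level differed widely between wells of cluster 2. In 3'DE library 1 the lowest well had 0, the median well 9067 and the highest 51095 CPM, with quartiles at 3915 and 14147. In 3'DE library 2 the lowest was 0, the median 4432 and the highest 24338 CPM. In the 3'DE-UMI library the median well had 0 and the highest 13168 CPM. By depth, the shallowest, middle and deepest 41 wells of 3'DE library 1 had 10322, 11402 and 9423 CPM, with CCL5 in 38, 38 and 40 wells. The corresponding 12 wells each of 3'DE library 2 had 6132, 5863 and 4808 CPM. In that library 1 well held 1657 of the 7418 CCL5 reads of cluster 2, and a trend with depth was not tested. In the 3'DE-UMI library 10, 10 and 9 wells had 2498, 530.3 and 1983 CPM.

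In cluster 1 CCL5 reads were rare. They were found in 14 of 400 (3.5%), 14 of 448 (3.13%) and 2 of 528 wells (0.379%), and in 1.51%, 0.683% and 0.190% of wells after thinning. In 3'DE library 2 mouse wells had a like share with all reads (3.36%) and none after thinning, and the source of the cluster 1 reads was not tested. In 3'DE library 1, 4 of the 14 wells, with 149 of the 208 reads, went to cluster 2 when the clusters were made on all human genes but the 7, and 2 cluster 1 wells had more than 10000 CPM of CCL5.

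CCL4 was found in a minority of cluster 2 wells. The shares were 25.2% (31 of 123), 16.7% (6 of 36) and 6.90% (2 of 29) with all reads and 22.8%, 15.6% and 3.45% after thinning. In cluster 1 the thinned shares were 0.756%, 0% and 0%, and in mouse wells they were 0%. The median CPM of the positive wells in cluster 2 was 1179, 1002.0 and 874. In 3'DE library 1 it was found in 4 of the 41 shallowest, 11 of the 41 middle and 16 of the 41 deepest wells.

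Wells with CCL4 also held CCL5 in the 3'DE libraries. All 31 CCL4 wells of 3'DE library 1 and all 6 of 3'DE library 2 had a CCL5 read, in clusters where 94.3% and 83.3% of all wells had one. In the 3'DE-UMI library neither of the 2 CCL4 wells had one. The 3 CCL3 wells and the 10 and 2 IL2RA wells of the 3'DE libraries all held CCL5 reads as well. These counts are descriptions, since deeper wells show more genes: CCL4 wells of 3'DE library 1 had a median of 5977 reads, and the other wells 4104.

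**Figure D3:**
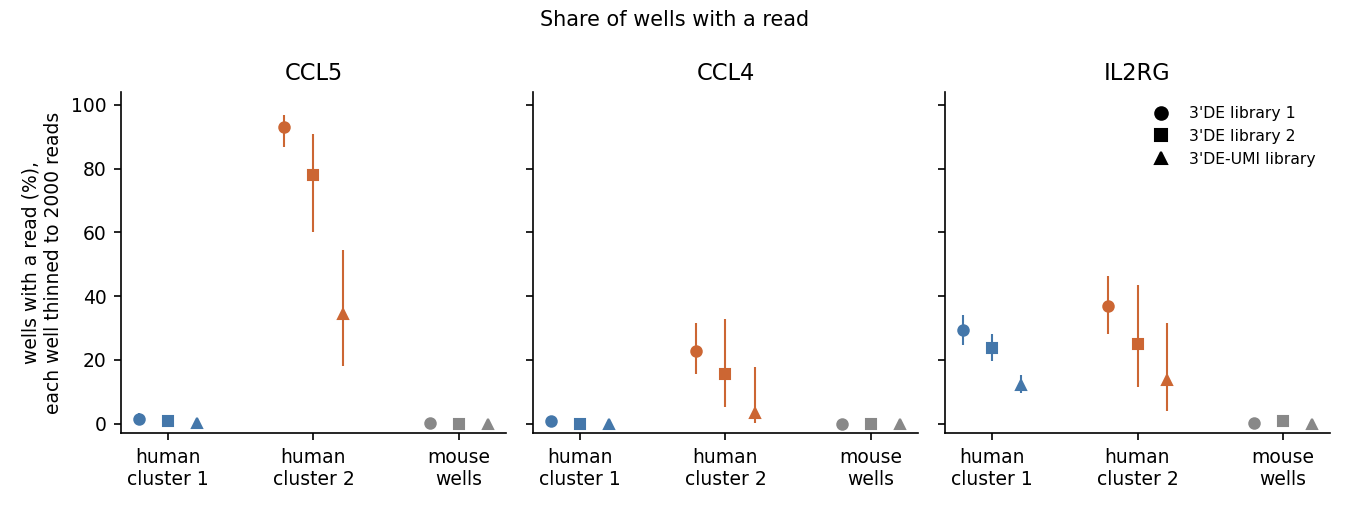
Share of wells with at least 1 read (vertical axis, percent) after thinning each well to 2000 reads, for CCL5, CCL4 and IL2RG in human cluster 1, human cluster 2 and mouse wells of the 3 libraries (marker shapes), with exact binomial 95% intervals. CCL5 separates cluster 2 from the rest in each library, while the IL2RG intervals of both clusters overlap within each library.

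IL2RG was seen in more cluster 1 than cluster 2 wells with all reads and in shares whose intervals overlapped at equal depth. A read was found in 80.8%, 73.7% and 27.7% of cluster 1 wells and in 61 of 123, 18 of 36 and 4 of 29 cluster 2 wells. Thinned to 2000 reads, the shares were 29.2% (24.8 to 34.0), 23.7% (19.8 to 28.0) and 12.1% (9.48 to 15.2) in cluster 1 and 36.8% (28.0 to 46.4), 25% (11.5 to 43.4) and 13.8% (3.89 to 31.7) in cluster 2. Mouse wells had 0.109%, 0.921% and 0%. Within cluster 1 the all-read share moved with depth: in 3'DE library 1 IL2RG was found in 79 of the 134 shallowest (59.0%) and in 126 of the 133 deepest wells (94.7%), at 201 and 171 CPM.

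The 3 receptor chains were seldom seen in 1 well. All 3 were found together in 1 of 123 cluster 2 wells of 3'DE library 1 and in no other well of either cluster. Exactly 2 of them were found in 8, 2 and 0 cluster 2 wells and in 1, 2 and 0 cluster 1 wells. IL2RA and IL2RG shared 7 of the 10 IL2RA wells of cluster 2 in 3'DE library 1 and both IL2RA wells in 3'DE library 2.

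**Figure D4:**
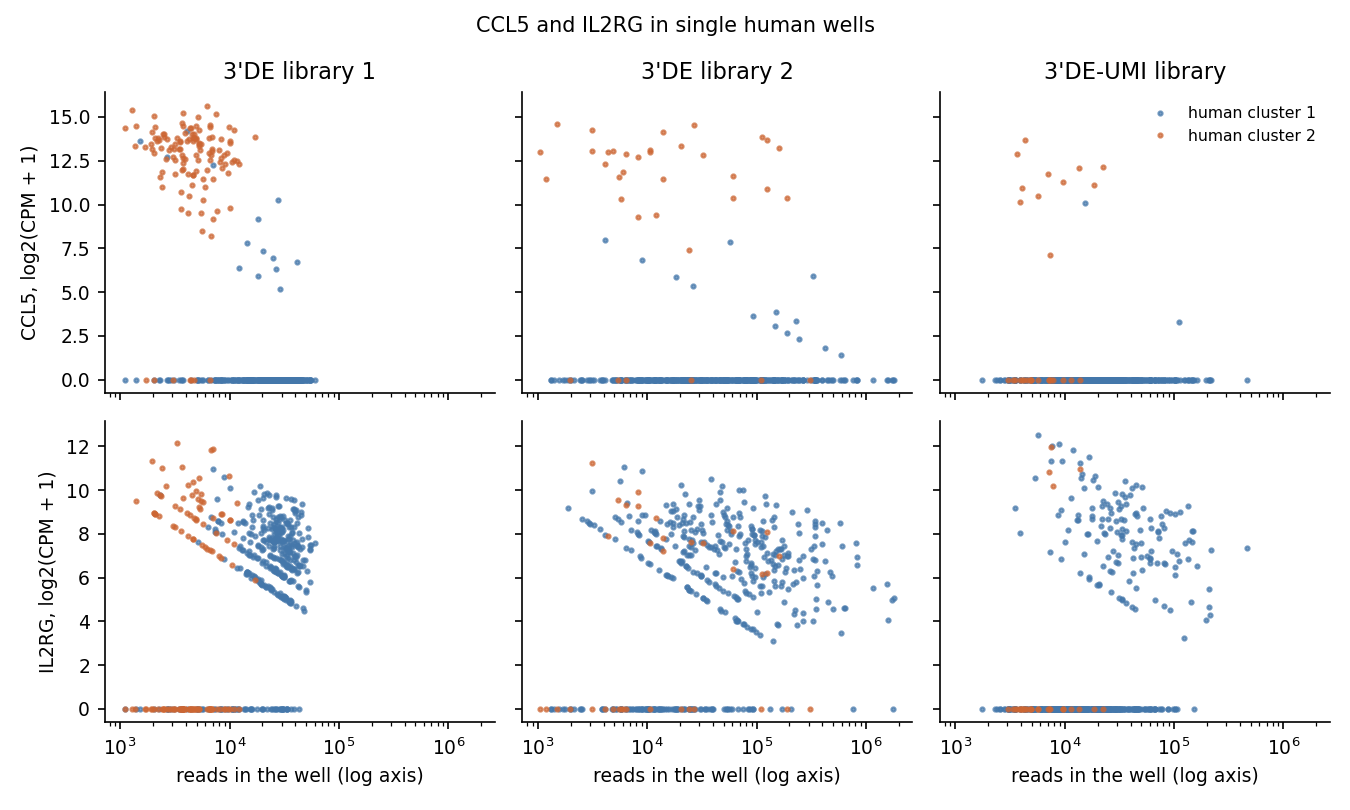
CCL5 (upper row) and IL2RG (lower row) as log2(CPM + 1) on the vertical axis against the reads in the well (horizontal log axis), 1 point per well of human cluster 1 (blue) or human cluster 2 (orange), 1 column per library. In the 3'DE libraries most cluster 2 wells lie high for CCL5 at every depth while cluster 1 wells lie mainly at 0; for IL2RG, wells of both clusters occupy the same band, whose lower edge is set by 1 read.

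Between the protocols, CCL5 was lower with 3'DE-UMI in cluster 2. The values were 1662 CPM against 10156 and 4940.2 CPM, with a log2 fold change of -2.87 ± 0.72 (SE, edgeR adjusted p = 0.00829). It was the 1 gene of the 5 tested that was called, where 172 of 6071 genes were called in all (2.83%), 156 of them lower (2.57%) and 16 higher (0.264%). The median log2 fold change of all genes tested was -3.92, from 29 wells and 206337 human reads with 3'DE-UMI, so CCL5 lay above the median gene. Against a single 3'DE library the log2 fold change was -3.13 (library 1) and -2.36 (library 2), with no test. CCL4 had 53.3 CPM against 589 and 167 (log2 -3.45 ± 1.48, SE, edgeR adjusted p = 0.174), and IL2RA, IL2RB and IL2RG had adjusted p-values of 0.923, 0.745 and 0.978. The fit takes the spread of the single 3'DE-UMI library from that of the 3'DE pair. Since 3'DE library 1 came from another cell mixture, mixture and protocol cannot be told apart in the contrast with it. The contrast with 3'DE library 2 lies within a single mixture but has a single library on each side.

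In cluster 1, where IL2RG had the most reads of the 7 genes, no difference in its level between protocols was shown. IL2RG had 146 CPM with 3'DE-UMI against 188 and 125 CPM (log2 fold change 0.08 ± 0.39, SE, 95% interval -0.74 to 0.90, edgeR adjusted p = 0.909). Its share of wells was nonetheless lower after thinning, at 12.1% against 29.2% and 23.7%, and the reads of its positive wells were more, with a median of 9 against 4 and 7. Fewer human genes of any kind were found per cluster 1 well with 3'DE-UMI, at a median of 789.5 against 2626 and 2204 with all reads. The lower share is therefore not particular to IL2RG. None of the 4 genes tested there was called by edgeR (1 at an unadjusted p under 0.05, CCL5) or by DESeq2 (2 unadjusted), where 1981 of 13659 genes were called in all (14.5%), 860 higher (6.3%) and 1121 lower (8.21%) with 3'DE-UMI. No dependence of the cluster difference on the protocol was called by the interaction term for the 5 genes tested (0 unadjusted, 0 by DESeq2). The estimates were -0.63 ± 0.61 for CCL5 and 0.47 ± 1.45 for IL2RG (SE, edgeR adjusted p = 1 for both). They were larger for CCL4 (2.57), IL2RB (5.17) and IL2RA (5.76), which had 0 reads in cluster 1 of the 3'DE-UMI library. With 1 residual degree of freedom and a single 3'DE-UMI library, differences of this size could not be resolved. The term was called for 63 of 12496 genes (0.504%), 3 larger (0.024%) and 60 smaller (0.48%) with 3'DE-UMI.

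UMIs, which count molecules rather than amplified reads, gave the same direction as reads for CCL5 and the opposite one for IL2RG, within a wide interval. CCL5 had 20 UMIs in 11 of 29 cluster 2 wells (1338 when scaled to 1000000 human UMIs, 817 to 2067) and 1 UMI in cluster 1 (0.913, 0.0231 to 5.09), a ratio of 1466 with a counting interval of 234 to 60744. The 11 wells held 1 to 5 UMIs from 1 to 103 reads. IL2RG had 191 UMIs in cluster 1 (174 on the same scale, 151 to 201) and 2 UMIs in cluster 2 (134, interval 16.2 to 483), a ratio of 0.767 with an interval of 0.0923 to 2.81. In reads the same library had placed IL2RG 2.59-fold higher in cluster 2, from 78 reads in 4 wells, 2 of which had no UMI of it. Per UMI there were 39.0 IL2RG reads in cluster 2 and 11.6 in cluster 1, against 13.8 and 13.9 for all human genes. The remaining receptor and chemokine signals of cluster 2 in this library were 2 UMIs of CCL4, 1 of IL2RA (33 reads), 1 of IL2RB and 1 of CCL3. Cluster 1 had none of these.

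**Figure D5:**
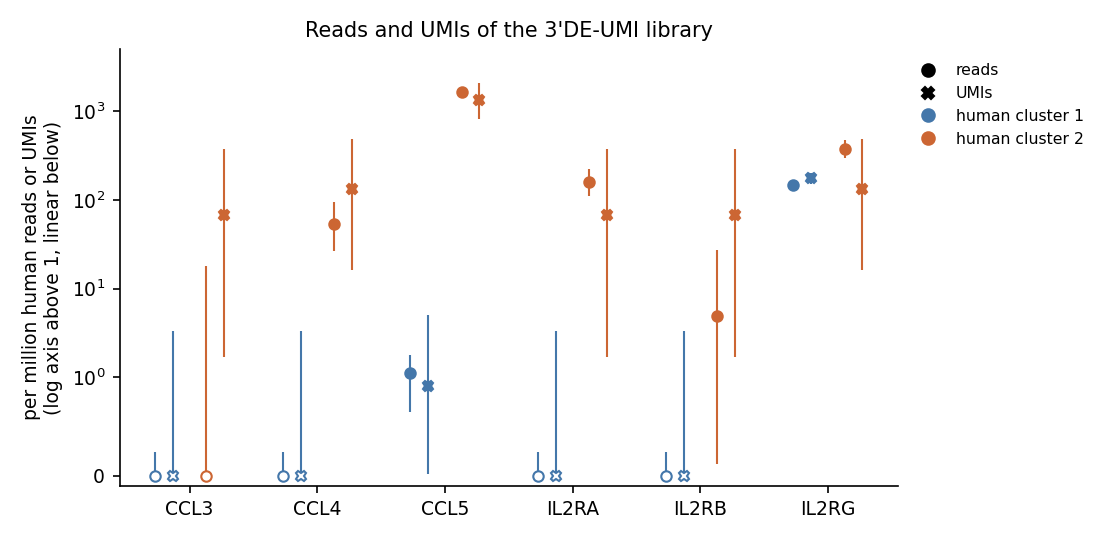
Level of 6 genes in the 3'DE-UMI library scaled to 1000000 human reads (circles) or human UMIs (crosses) on the vertical axis (linear below 1 and logarithmic above), for human cluster 1 (blue) and human cluster 2 (orange), with exact Poisson 95% intervals and open markers at 0. CCL5 of cluster 2 lies at 1662 in reads and 1338 in UMIs, and IL2RG of cluster 2 at 378 in reads and 134 in UMIs, the last from 2 UMIs.

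The genes whose levels ran most like each of them over the 6 sums of library and cluster are given by identifier, since they were not matched to symbols here. For CCL5 the nearest of 3014 genes with a mean of at least 50 CPM was ENSG00000169442 (Pearson r = 0.992 on log2(CPM + 1), 95th percentile of all 0.882), and CCL5 was itself among the 3 nearest to CCL4 (r = 0.990). For IL2RA the nearest was ENSG00000115607 (r = 0.998). These values describe 6 points that fall into 2 clusters and share 3 libraries.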

How the data were processed

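The deposited files hold raw counts of reads per gene and well for 3 libraries, and counts of UMIs for the 3'DE-UMI library. The authors made the read counts with mappa (STAR 2.7.0b) and the UMI counts with the Drop-seq tools (STAR 2.4.2a), on a combined hg19 and mm10 reference (Cell Ranger 1.2.0). Reads were downsampled by the authors; whether the deposited counts follow that step is not given in the sources used here. Counting was at transcript ends, so levels were not scaled by gene length and were not ranked between genes.

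Groups came from the titles. Wells with at least 1000 reads and 200 genes were kept, and called mixed where the minor species held at least 10%. Human wells of all libraries were clustered in scanpy 1.11.5 (1000 variable genes, 20 components, 15 neighbours, Leiden resolution 0.1). Human genes were divided at random into 2 sets, the 7 genes in one, and each set was tested on clusters made from the other. Sums per library and cluster were fitted in edgeR 4.0.16 (filterByExpr, TMM, quasi-likelihood F-test, two-sided, library block), with Benjamini-Hochberg adjustment over both sets and a threshold of 0.05. The SE is the log2 fold change over the root of F. DESeq2 1.42.0 was an alternative. The protocol and interaction fits left 1 residual degree of freedom. The fits were also run on simulated counts, drawn with the fit's own spread and no library effect. The outcome is not given here, and no value above rests on it. Replicates are separate libraries, and nothing says that cells were cultured separately, so p-values may measure technical spread. Shares have exact binomial and levels exact Poisson 95% intervals, which cover counting error only, since reads are not independent molecules. No doublet caller was run. Mixed wells hold doublets of 2 species, and those of 1 species stay among the wells.

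The genes and lists were chosen with earlier results of these data known. The genes named by rule were the 7, and the 3 genes most like each in level. Marker lists, pathway lists, copies of CCL3 and CCL4 and mitochondrial genes could not be matched to identifiers with the tables used here, so no cluster was named after a line.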

Additional observations from a re-analysis of the deposited data

Results flagged for a closer look

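Reads of these genes also lay in wells that entered no comparison, above the level of the mouse wells when scaled to reads of both species. Human genes rise on that scale with the share of human reads, by which mixed and mouse wells were told apart. In mixed wells of mostly human reads, CCL5 had 1882, 846 and 325 CPM in the 3 libraries, scaled here to reads of both species (mouse wells 0.723, 3.27 and 0), in 55 of 139, 21 of 76 and 7 of 31 wells. CCL4 had 53.0, 4.42 and 50.3 there, IL2RG 213, 272.5 and 41.4, and IL2RA 14.1 in 3'DE library 1. Mixed wells of both kinds held 36.9%, 20.1% and 22.0% of all CCL5 reads of a library. In wells under 1000 reads, again scaled to reads of both species, CCL5 had 5944, 166 and 950.4 CPM, from 85, 5 and 57 reads. CCL4 had 69.9 there in 3'DE library 1, from 1 read, and IL2RG had 350 and 132 in the 3'DE libraries, from 5 and 4 reads. The source of these reads was not tested. With 3 libraries no group was large enough to be searched for an outlying sample. Edger's interaction term was called for none of the 5 genes tested (0 at an unadjusted p under 0.05, 0 by DESeq2). That lack of calls does not show that the cluster difference was the same with both protocols.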

How the results depend on the processing

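CCL5 kept its direction and its call between clusters under all 13 alternatives (log2 9.33 to 11.24). CCL4 (8.07 to 11.99) and IL2RA (7.96 to 10.10) kept their direction, and lost the call only where the report says so: CCL4 without the library block (8.07) and without 3'DE library 1 (8.43 to 11.99 with 1 library left out), IL2RA without either 3'DE library. DESeq2 called IL2RB (7.16), whose value ranged from 0.83 to 9.34 with 1 library left out. The number of genes called between clusters was 381, and became 1443 with DESeq2, 238 with at least 5000 reads, 109 without the library block and 33 to 450 with 1 library left out. Of these, 131 of 381 were higher in cluster 2, and 62 of 109 without the block. Between protocols in cluster 1 it was 1981, and 1050 with UMI counts. In cluster 2 it was 172, then 507 with DESeq2 and 23 with UMI counts. The interaction had 63 calls, 3 with DESeq2 and 13 with UMI counts.

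Some protocol values changed sign. In the cluster 2 contrast they were IL2RG without 3'DE library 2 (-0.51), with mixed wells from 20% (-0.93), with UMI counts (-1.54) and with clusters on all genes but the 7 (-0.016), IL2RA (-1.07) and IL2RB (1.24) with UMI counts. In the cluster 1 contrast they were CCL5 without 3'DE library 1 (0.16 against -3.06) and IL2RG without 3'DE library 2 (-0.20 against 0.08). In the interaction they were IL2RG with mixed wells from 20% (-0.46) and with UMI counts (-2.07). Of these results, CCL5 in cluster 1 was called between protocols in 1 setting, with no filter on low counts (-3.10, adjusted p = 0.0313, range over alternatives to 0.564). The causes were not tested. Of 72 shares of wells recomputed, 24 left the interval of the value at 2000 reads, most of them IL2RG. The 20% limit, the clusters on all genes but the 7, and UMI counts in the cluster 2 protocol contrast were chosen after seeing the data. With no gene minimum, added wells went to the nearer cluster profile. Mitochondrial and marker-based alternatives were not run. The cluster contrast is paired by library through its block. Between the protocols, which are the labelled groups, the following holds. No paired analysis was possible because 3'DE and 3'DE-UMI share fewer than 2 replicate numbers. Those numbers are labels that do not mark pairs, and there was a single 3'DE-UMI library. Few reads of CCL3, none of IFNG and 29 cluster 2 wells with 3'DE-UMI limit what can be said of these.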
